A study of Sorghum bicolor with 14 samples.

Results

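Filling grain of sorghum at 10 and 20 days after pollination (DAP) was set against the pistil at 1-2 days before pollination (DBP) and at 0-2 DAP. Of the 31337 genes in the deposited table, 24174 had at least 1 TPM (transcripts per 1000000) in at least 1 of these 4 stages. A gene was counted as higher on a side when its lower log2(TPM + 1) value there stood at least 1 above the higher value of the other side, so that both stages of a side had to agree on a difference of at least 2-fold. By this rule 1249 genes were higher in filling grain, which is 5.17% of the genes that passed the TPM minimum, and 7166 were higher in pistil, which is 29.6%. The distance between the nearest values of the sides is called the gap below.

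The plants were sorghum of the cultivar M35-1 grown in an open field, per the labels' protocols, and none carried a described treatment or mutation. The labels list 3 libraries for 10 DAP, 3 for 20 DAP, 3 for 1-2 DBP and 3 for 0-2 DAP. The 10 and 20 DAP libraries are labelled seed, the 1-2 DBP libraries pistil, and the 0-2 DAP libraries carry both words, pistil for the source and seed for the tissue. No label says if different plants gave the libraries of 1 stage. The table holds 1 value per gene and stage, so no value has an error, no test between the sides can be made, and 10 and 20 DAP, or 1-2 DBP and 0-2 DAP, are different stages and not replicates of each other. The depth behind single values is unknown, and the 2 sides also coincide with 2 separate blocks of sample records, so a technical difference between those blocks cannot be told apart from the tissue. A kit for total RNA and a directional RNA kit are both named for every library.

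A cereal pistil is a maternal organ of dividing and differentiating cells around the ovule. After fertilization the endosperm comes to fill most of the grain and accumulates starch and storage proteins, which in sorghum are mainly kafirins, prolamins kept in protein bodies of the endoplasmic reticulum. Starch is built from ADP-glucose by synthases and branching enzymes, with granule-bound synthase making amylose. In tissue measured as a whole, fewer cells of a type and less RNA per cell cannot be told apart.

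On the deposited scale the grain side held fewer genes than the pistil side, and a small number of them were very abundant. Of the 1249 grain genes, 40 had at least 1000 TPM in both grain stages and 752 had under 20 TPM in at least 1 of them. The median of the lower value on the own side was 12.3 TPM for grain genes and 22.2 TPM for pistil genes. The order of the 2 gene counts turned round after median-ratio scaling, with 2819 grain and 1954 pistil genes, and after quantile normalization there were 2466 grain and 2511 pistil genes. The 1249 grain genes took up 41.0% of the TPM total of grain at 10 DAP and 59.7% at 20 DAP, against 1.22% at 1-2 DBP and 1.05% at 0-2 DAP. The 7166 pistil genes held 8.48% at 10 DAP and 5.81% at 20 DAP, against 38.9% at 1-2 DBP and 44.2% at 0-2 DAP. Of the grain genes, the 10 with the highest lower value in grain alone took 21.9% of TPM at 10 DAP and 29.5% at 20 DAP, and these 10 took 0.527% at 1-2 DBP and 0.343% at 0-2 DAP. Nearly all of that pistil share was Sobic.008G185900, with 5263 TPM at 1-2 DBP and 3425 TPM at 0-2 DAP. The corresponding 10 pistil genes took 0.364% at 10 DAP and 0.230% at 20 DAP, against 2.998% at 1-2 DBP and 5.49% at 0-2 DAP. These values also chose the genes, so they describe the sides and test nothing.

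**Figure D1:**
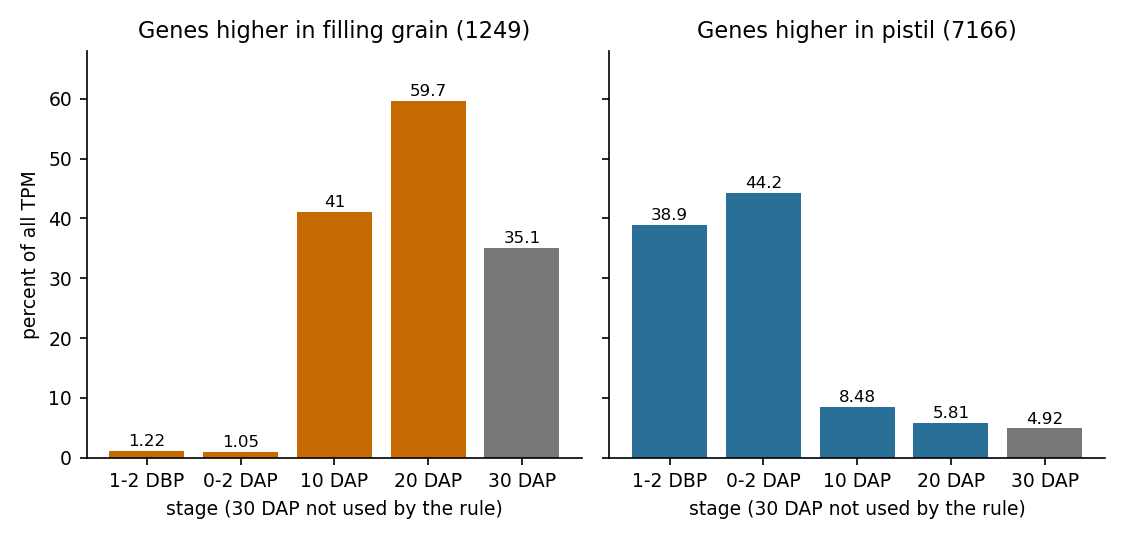
Percent of all TPM held by the genes higher in filling grain (left panel) and by the genes higher in pistil (right panel) at the 5 stages, in order of age. The grain genes reach 59.7% at 20 DAP and the pistil genes 44.2% at 0-2 DAP; grey bars mark 30 DAP, which the rule did not use.

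As deposited, the gap had a median of 2.06 among the grain genes and 1.501 among the pistil genes. Among genes that kept their call under both the median-ratio and the quantile scale, the order of these deposited medians turned round. They were 2.07 for 1248 grain genes and 2.24 for 1954 pistil genes. The smallest gap in that set was 1.00 for grain and 1.33 for pistil, so it leaves out the pistil calls nearest the threshold. The counts that follow are on the deposited scale only. The gap was at least 4, or 16-fold on the log2(TPM + 1) scale, for 212 grain genes and 156 pistil genes. It was at least 10 for 26 grain genes and 1 pistil gene. Both pistil values were under 1 TPM for 658 of the 1249 grain genes, so these genes passed the TPM minimum through the grain alone. Both grain values were under 1 TPM for 1155 of the 7166 pistil genes, which passed it through the pistil alone. At least 20 TPM in both stages of one side with under 1 TPM in both stages of the other was found for 150 grain genes and 101 pistil genes. Of the 15759 genes that were not called, 1792 had both grain values above both pistil values by less than the required gap, 8215 had both grain values below, and 5752 had overlapping sides.

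The mix of calls, counted on the deposited scale only, differed between levels of abundance. Among the 201 genes whose highest value over the 4 stages was at least 1000 TPM, 87 were higher in filling grain and 50 in pistil, so that grain genes made up 63.5% of the calls. Among the 9379 genes with a highest value from 20 to below 100 TPM, 367 were higher in filling grain and 3643 in pistil, and grain genes made up 9.15% of the calls. Among the 4561 genes below 5 TPM, 144 (3.16%) were higher in filling grain and 472 (10.3%) in pistil. The genes from 20 to below 100 TPM had 3.91% in filling grain and 38.8% in pistil. The levels were cut on the values that the rule itself used. The constant added to TPM also makes the required gap harder to reach at low TPM. The low shares below 5 TPM are thus partly set by the rule, and how far was not tested.

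**Figure D2:**
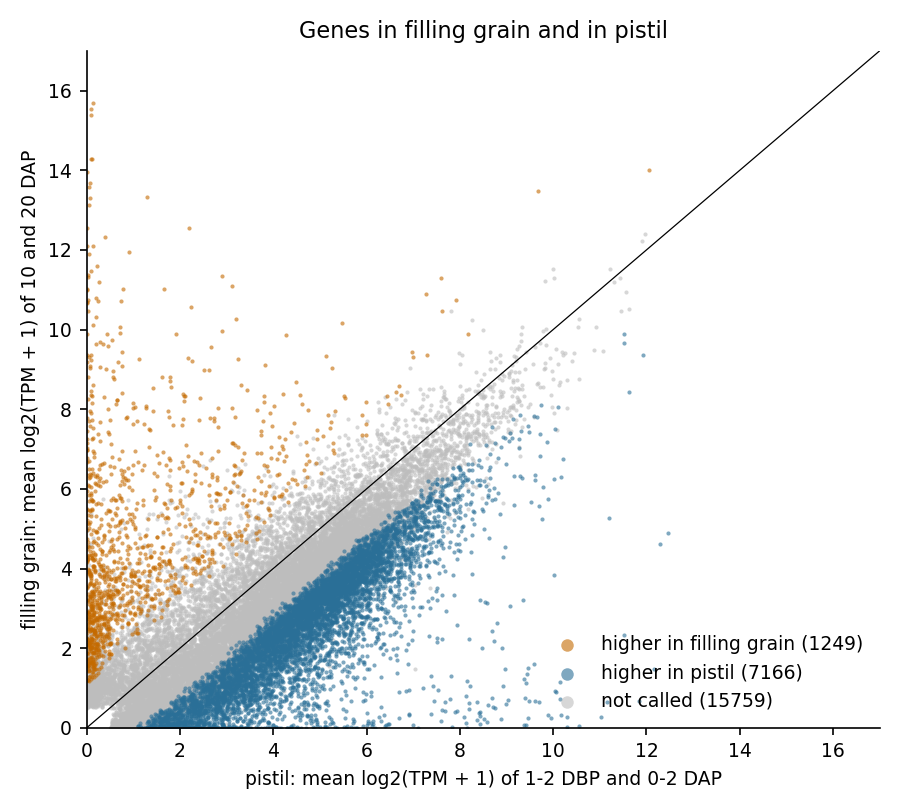
Mean log2(TPM + 1) of each of 24174 genes in filling grain (vertical axis) and in pistil (horizontal axis), with the line of equal values. The 1249 grain genes include a column of points at the left edge, near 0 in pistil, while the 7166 pistil genes lie mostly in a band just below the uncalled genes.

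The number of genes called on each side depended on the scale of the columns. TPM divides a fixed total, and the median difference of side means, filling grain minus pistil, was -0.99 on the log2 scale over all 24174 genes as deposited. Dividing the columns by median-ratio size factors, which line up the bulk of genes, moved that median to -0.04, and quantile normalization moved it to -0.19. After median-ratio scaling 2819 genes were higher in filling grain and 1954 in pistil, and after quantile normalization 2466 were higher in filling grain and 2511 in pistil. Grain genes thus made up 14.8% of the calls on the deposited scale, 59.1% on the median-ratio scale and 49.5% on the quantile scale. Median-ratio scaling raised grain values and lowered pistil values, so it could remove no grain call, here or among the IDs named below. Only quantile normalization could remove a grain call. The grain calls were contained in the rescaled ones almost entirely: 1248 of the 1249 were made under all 3 scales. The exception, Sobic.008G185900, had 18026 TPM in grain of 10 DAP and 14769 TPM at 20 DAP, against 5263 TPM in pistil of 1-2 DBP and 3425 TPM at 0-2 DAP, and its difference of side means was 1.94 as deposited and -0.30 after quantile normalization.

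Of the 7166 pistil genes, 1954 (27.3%) were called under all 3 scales. These 1954 genes had a median gap of 2.24 as deposited, 921 of them had at least 20 TPM in both pistil stages, and 672 were under 1 TPM in both grain stages. They held 1.13% of TPM at 10 DAP and 0.613% at 20 DAP, against 13.2% at 1-2 DBP and 20.2% at 0-2 DAP. The smallest gap among them was 1.33 as deposited. The other pistil genes did not meet the 2-fold rule after median-ratio scaling.

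**Figure D3:**
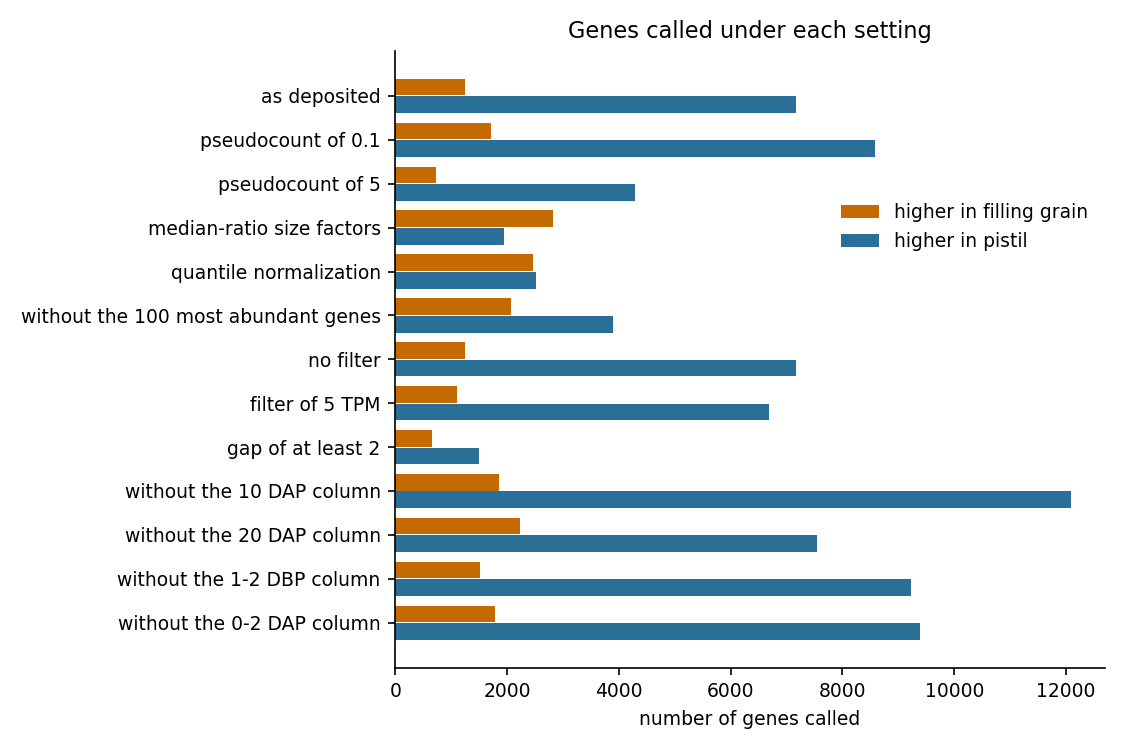
Number of genes called higher in filling grain (upper bar of each pair) and higher in pistil (lower bar) as deposited and under each alternative setting. The pistil bar is the longer one in every setting but median-ratio size factors, where 2819 grain genes stand against 1954 pistil genes.

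The table gives gene IDs and no names, and 0 of its IDs occur in the reference gene table, so the genes are named by ID. For each side, the 2 IDs with the largest gap among members of at least 20 TPM in both stages are given first. Sobic.005G184700 had 41745 TPM in grain of 10 DAP and 67799 TPM at 20 DAP, against 0.0232 TPM in pistil of 1-2 DBP and 0.168 TPM at 0-2 DAP, a gap of 15.13. Sobic.009G001600 had 39549 TPM in grain of 10 DAP and 45724 TPM at 20 DAP, against a listed 0 in pistil of 1-2 DBP and 0.140 TPM at 0-2 DAP, a gap of 15.08. Both were high at both grain stages and at 0.168 TPM or below in both pistil stages, so the size of their gap depends in part on the pseudocount of 1. For Sobic.005G184700 the gap was 17.2 with a pseudocount of 0.1 and 13.0 with 5.

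On the pistil side, Sobic.003G034200 had 2.17 TPM in grain of 10 DAP and 1.42 TPM at 20 DAP, against 4170 TPM in pistil of 1-2 DBP and 4999 TPM at 0-2 DAP, a gap of 10.36. Sobic.001G013701 was listed at 0 at 10 DAP and had 0.0518 TPM at 20 DAP, against 1063 TPM in pistil of 1-2 DBP and 2117 TPM at 0-2 DAP, a gap of 9.98. This gap too depends on the pseudocount, and was 12.8 with 0.1 and 7.72 with 5. Both pistil stages stood far above both grain stages in each case. These 4 IDs were called on the same side under both the median-ratio and the quantile scale.

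Other genes of at least 20 TPM in both stages of a side lay close to the threshold. Just inside it on the grain side was Sobic.006G263000, with 36.3 TPM in grain of 10 DAP and 24.2 TPM at 20 DAP against 11.6 TPM in pistil of 1-2 DBP and 6.26 TPM at 0-2 DAP. Just outside was Sobic.010G101200, with 3077 TPM in grain of 10 DAP and 2836 TPM at 20 DAP against 1418 TPM in pistil of 1-2 DBP and 725 TPM at 0-2 DAP. On the pistil side Sobic.002G350400 was just inside, with 110 TPM in grain of 10 DAP and 53.6 TPM at 20 DAP against 221 TPM in pistil of 1-2 DBP and 293 TPM at 0-2 DAP. Sobic.003G412100 was just outside, with 15.1 TPM in grain of 10 DAP and 6.69 TPM at 20 DAP against 31.2 TPM in pistil of 1-2 DBP and 41.9 TPM at 0-2 DAP. Of these 4, Sobic.002G350400 lost its call under both rescalings, Sobic.006G263000 kept it, Sobic.010G101200 was called higher in filling grain after median-ratio scaling only, and Sobic.003G412100 was called under neither.

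Further IDs of the grain side are named here after their values were seen. Sobic.005G185400 and Sobic.005G192700 were listed at 0 in both pistil stages, which held for 45 grain genes in all. The first had 15092 TPM in grain of 10 DAP and 16484 TPM at 20 DAP, and the second 4858 TPM in grain of 10 DAP and 7329 TPM at 20 DAP. Sobic.009G186400, with 11339 TPM in grain of 10 DAP and 9440 TPM at 20 DAP, had 2.03 TPM in pistil of 1-2 DBP and 0.977 TPM at 0-2 DAP. Sobic.009G021400 had 7578 TPM in grain of 10 DAP and 13291 TPM at 20 DAP, against 0.0550 TPM in pistil of 1-2 DBP and 0.0335 TPM at 0-2 DAP. Abundance in grain and distance from pistil did not go together in every gene, as Sobic.008G185900 above shows, which was among the 10 most abundant grain genes with a gap of 1.49.

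On the pistil side, the most abundant members differed in their level in grain. The IDs that follow were likewise picked with their values in view. Sobic.010G246400 had 584 TPM in grain of 10 DAP and 200 TPM at 20 DAP, against 3061 TPM in pistil of 1-2 DBP and 3263 TPM at 0-2 DAP. Sobic.006G135600 had 931 TPM in grain of 10 DAP and 697 TPM at 20 DAP, against 3272 TPM in pistil of 1-2 DBP and 2652 TPM at 0-2 DAP. Both had at least 200 TPM in each grain stage. Sobic.006G135600 was not called after median-ratio scaling, where its difference of side means was -0.69, against -1.87 as deposited. By contrast Sobic.004G198702 had 20.0 TPM in grain of 10 DAP and 27.5 TPM at 20 DAP, against 2789 TPM in pistil of 1-2 DBP and 9072 TPM at 0-2 DAP, and Sobic.002G044500 had 3.64 TPM in grain of 10 DAP and 4.54 TPM at 20 DAP, against 1430 TPM in pistil of 1-2 DBP and 5939 TPM at 0-2 DAP.

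Gene lists written down from general knowledge of the sorghum genome hold 25 IDs under 7 headings, of which 24 are in the table and 23 passed the TPM minimum. None of these headings was checked against an annotation, and a heading says only under which list an ID stood. As deposited, 6 of the 23 were higher in filling grain and 5 in pistil, against 5.17% of all genes for filling grain and 29.6% for pistil. The lists were chosen with earlier results of these data known, so nothing is read from the difference.

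The 3 IDs listed as kafirins were all higher in filling grain under all 3 scales. Sobic.002G211700 had 33697 TPM in grain of 10 DAP and 67112 TPM at 20 DAP, against 0.0334 TPM in pistil of 1-2 DBP and 0.0954 TPM at 0-2 DAP, and Sobic.005G185600 had 15003 TPM in grain of 10 DAP and 10121 TPM at 20 DAP, against a listed 0 in pistil of 1-2 DBP and 0.0690 TPM at 0-2 DAP. Sobic.009G001600, described above, is the other. These columns also chose the members, so the values are no independent check of the stage labels. Their median difference of side means was 15.28, against -0.99 for all genes.

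The starch synthesis list has 7 IDs: 2 were higher in filling grain, 1 was higher in pistil and 4 were not called. Sobic.010G022600 had 1971 TPM in grain of 10 DAP and 2191 TPM at 20 DAP, against 1.04 TPM in pistil of 1-2 DBP and 0.452 TPM at 0-2 DAP, a gap of 9.92. Sobic.003G230500 had 418 TPM in grain of 10 DAP and 188 TPM at 20 DAP, against 24.7 TPM in pistil of 1-2 DBP and 22.2 TPM at 0-2 DAP, a gap of 2.88. The pistil call was Sobic.006G221000, with 6.21 TPM in grain of 10 DAP and 2.59 TPM at 20 DAP, against 65.9 TPM in pistil of 1-2 DBP and 54.0 TPM at 0-2 DAP. The list thus had calls on both sides.

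The 4 starch IDs without a call all had at least 17.7 TPM in each pistil stage. Sobic.004G163700 had 229 TPM in grain of 10 DAP and 79.0 TPM at 20 DAP, against 17.7 TPM in pistil of 1-2 DBP and 69.4 TPM at 0-2 DAP. Sobic.007G101500 had 526 TPM in grain of 10 DAP and 179 TPM at 20 DAP, against 81.1 TPM in pistil of 1-2 DBP and 118 TPM at 0-2 DAP. For both, the grain values lay above both pistil values by less than 2-fold at their nearest, and both were called higher in filling grain under both the median-ratio and the quantile scale. Sobic.010G047700, with 165 TPM in grain of 10 DAP and 91.0 TPM at 20 DAP against 68.4 TPM in pistil of 1-2 DBP and 107 TPM at 0-2 DAP, was called after median-ratio scaling only. Sobic.010G273800 had 274 TPM in grain of 10 DAP and 196 TPM at 20 DAP, against 209 TPM in pistil of 1-2 DBP and 276 TPM at 0-2 DAP, and its sides overlapped. The median difference of side means over the list was 1.64 on the deposited scale, 2.82 on the median-ratio scale and 2.21 on the quantile scale.

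Among the IDs listed as C4 carbon fixation, the concentrating pathway of leaf photosynthesis, Sobic.009G132900 stood apart from the others. It had 1216 TPM in grain of 10 DAP and 320 TPM at 20 DAP, against 1.15 TPM in pistil of 1-2 DBP and 8.61 TPM at 0-2 DAP, a gap of 5.06, and it was called under all 3 scales. Sobic.003G036200 was called higher in pistil at low values, with 0.767 TPM in grain of 10 DAP and 0.483 TPM at 20 DAP against 2.72 TPM in pistil of 1-2 DBP and 2.77 TPM at 0-2 DAP, and lost that call under both rescalings. Sobic.007G166300 had 29.9 TPM in grain of 10 DAP and 10.7 TPM at 20 DAP, against 33.3 TPM in pistil of 1-2 DBP and 59.9 TPM at 0-2 DAP, and was not called. Sobic.010G160700 was under 1 TPM in all 4 stages.

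The IDs listed as phytochromes, red light receptors, were lower in filling grain in 2 of 3 cases, under all 3 scales. Sobic.001G394400 had 12.4 TPM in grain of 10 DAP and 7.18 TPM at 20 DAP, against 59.4 TPM in pistil of 1-2 DBP and 49.8 TPM at 0-2 DAP. Sobic.001G111500 had 0.648 TPM in grain of 10 DAP and 0.390 TPM at 20 DAP, against 6.06 TPM in pistil of 1-2 DBP and 5.71 TPM at 0-2 DAP. Sobic.001G007900, with 16.4 TPM in grain of 10 DAP and 6.51 TPM at 20 DAP against 29.6 TPM in pistil of 1-2 DBP and 26.2 TPM at 0-2 DAP, was not called.

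Of the 2 IDs in the table listed as multiseeded, named for sorghum mutants with extra grains, Sobic.001G407600 was higher in pistil under all 3 scales. It had 16.3 TPM in grain of 10 DAP and 4.79 TPM at 20 DAP, against 132 TPM in pistil of 1-2 DBP and 286 TPM at 0-2 DAP. Sobic.006G095600 had overlapping sides, with 24.7 TPM in grain of 10 DAP and 1.36 TPM at 20 DAP against 7.44 TPM in pistil of 1-2 DBP and 38.2 TPM at 0-2 DAP. None of the 3 IDs listed as lignin synthesis (brown midrib) and neither of the 2 listed as tannin regulators was called. Nearest to a call was Sobic.004G062500, with 3.21 TPM in grain of 10 DAP and 8.06 TPM at 20 DAP against 17.02 TPM in pistil of 1-2 DBP and 51.3 TPM at 0-2 DAP, a pistil gap of 0.99. The median of the lignin list was -0.49 as deposited and 0.58 after median-ratio scaling, so its sign turned with the scale. The median over all genes rose too, from -0.99 to -0.04, and lay below that of the list on both scales.

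**Figure D4:**
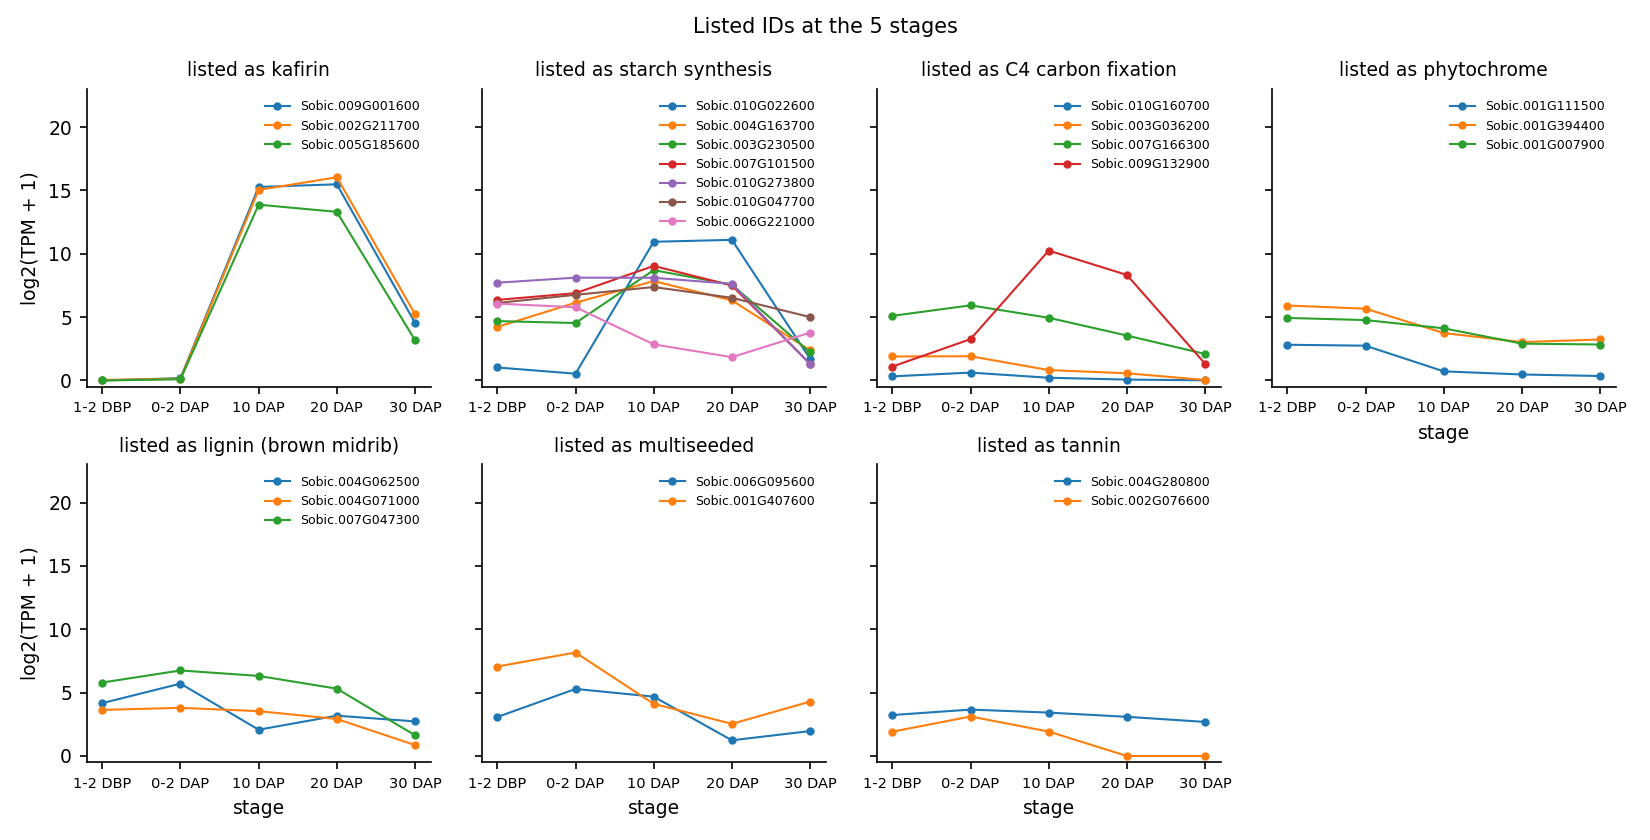
log2(TPM + 1) of the listed IDs at the 5 stages in order of age, 1 panel per list and 1 line per ID. The 3 kafirin lines lie near 0 in both pistil stages and above 13 at 10 and 20 DAP, while the 7 starch synthesis lines start apart and only 2 of them are called higher in filling grain.

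On the deposited scale, fewer grain genes than pistil genes had their own stages within 2-fold of each other. Among the grain genes, 20 DAP lay within 2-fold of 10 DAP for 768 (61.5%), was at least 2-fold higher for 209 and at least 2-fold lower for 272. Among the pistil genes, 0-2 DAP lay within 2-fold of 1-2 DBP for 6395 (89.2%), was at least 2-fold higher for 389 and at least 2-fold lower for 382. Over all 24174 genes the share within 2-fold was 76.8% for the grain stages and 84.5% for the pistil stages. The median-ratio size factors were 0.827 for 10 DAP and 0.535 for 20 DAP, against 1.4996 for 1-2 DBP and 1.52 for 0-2 DAP, so a shift of the whole column enters the grain comparison and hardly the pistil one. These counts were not made on the rescaled values. Across these genes, as a description only, Spearman's rho was 0.889 between 10 and 20 DAP and 0.922 between 1-2 DBP and 0-2 DAP, and from 0.639 to 0.708 between a grain and a pistil stage.

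The members whose own stages were furthest apart, among those of at least 20 TPM, show what agreement of a side can cover; they too were picked with their values in view. Sobic.007G075250 had 86.4 TPM in grain of 10 DAP and 8340 TPM at 20 DAP, against 0.292 TPM in pistil of 1-2 DBP and 0.662 TPM at 0-2 DAP. Sobic.003G415300 ran the other way, with 428 TPM in grain of 10 DAP and 38.1 TPM at 20 DAP, against a listed 0 in both pistil stages. Among the pistil genes, Sobic.007G068300 had 0.581 TPM in grain of 10 DAP and 0.0223 TPM at 20 DAP, against 45.9 TPM in pistil of 1-2 DBP and 587 TPM at 0-2 DAP. Sobic.006G239600 had 1.58 TPM in grain of 10 DAP and a listed 0 at 20 DAP, against 684 TPM in pistil of 1-2 DBP and 42.9 TPM at 0-2 DAP.

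For 30 DAP the labels list 2 libraries, against 3 for each other stage. The 30 DAP column was not rescaled. Its counts and shares, here and in the next paragraph, are therefore on the deposited scale only. A shift of the whole column can enter the 2-fold counts. The column was not used by the rule and shows where the members stood in older seed. There, 856 of the 1249 grain genes (68.5%) were at least 2-fold below both 10 and 20 DAP, against 26.6% of all genes, and 121 (9.69%) were at least 2-fold above both, against 5.43% of all genes. Of the 7166 pistil genes, 6672 (93.1%) were at least 2-fold below both pistil stages at 30 DAP, against 59.3% of all genes, and 18 (0.251%) were at least 2-fold above both, against 5.65%. The members were chosen for high values in the stages they are set against here. At least 1 TPM remained at 30 DAP for 52.4% of the grain genes and 63.5% of the pistil genes, against 64.7% of all genes. At 30 DAP, 222 of the 1249 grain genes and 528 of the 7166 pistil genes were listed at 0. The share over all genes was not computed.

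The grain genes still held 35.1% of TPM at 30 DAP, but mostly through other members than at 20 DAP. The 121 grain genes that were higher again at 30 DAP held 0.534% of TPM in 10 DAP grain, 5.30% in 20 DAP grain and 25.8% at 30 DAP. These 121 were chosen by their 30 DAP values, so a larger share at 30 DAP follows from the choice. The 40 grain genes of at least 1000 TPM in both grain stages held 31.4% and 42.2% at 10 and 20 DAP, and 3.70% at 30 DAP. Highest at 30 DAP among the grain genes, and chosen for it after the values were seen, were Sobic.001G144900, with 38.5, 2902 and 20853 TPM at 10, 20 and 30 DAP, and Sobic.001G311200, with 45.9, 2937 and 19391 TPM. Both were at 2.51 TPM or below in each pistil stage. The pistil genes held 4.92% of TPM at 30 DAP.

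The share of grain genes ranged from 3.13% to 9.95% over the ID prefixes that carry a chromosome number, which was not tested. Of the 1306 Sobic.005G genes that passed the TPM minimum, 130 (9.95%) were higher in filling grain, against 5.17% of all genes, and Sobic.004G was lowest with 87 of 2782 (3.13%). The 130 Sobic.005G genes held 15.5% of TPM at 10 DAP and 20.2% at 20 DAP, against 0.0264% at 1-2 DBP and 0.0435% at 0-2 DAP. The pistil genes made up between 26.6% and 31.2% of the passing genes of each numbered prefix. Among the IDs that begin with Sobic.K and carry no chromosome number, 94 of 147 (63.9%) were higher in pistil and 0 in filling grain. Over all genes the shares were 29.6% for pistil and 5.17% for filling grain. Whether the Sobic.K IDs are separate genes or near-identical copies was not checked. The 147 Sobic.K genes held 0.00284% of TPM at 10 DAP and 0.00186% at 20 DAP, against 0.838% at 1-2 DBP and 1.21% at 0-2 DAP.

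Leaving out Sobic.K, runs of at least 2 members that were neighbours in ID order held 327 of the grain genes (26.2%) and 3538 of the pistil genes (50.03%), while 922 grain genes and 3534 pistil genes stood alone. With 5.17% of all genes called for grain and 29.6% for pistil, some members are neighbours in any order, so nothing is read from these shares. The runs and their IDs were picked with their values in view. Grain runs of 5 or more numbered 7, of which 4 had IDs beginning with Sobic.005G. The 5 IDs from Sobic.005G184400 to Sobic.005G184800 summed to 76265 TPM in grain of 10 DAP and 123950 TPM at 20 DAP, against 0.118 TPM in pistil of 1-2 DBP and 0.457 TPM at 0-2 DAP. The 8 IDs from Sobic.005G192700 to Sobic.005G193180 summed to 10889 TPM in grain of 10 DAP and 14916 TPM at 20 DAP and were listed at 0 in both pistil stages. The 8 IDs from Sobic.005G173800 to Sobic.005G174600 summed to 652 TPM in grain of 10 DAP and 175 TPM at 20 DAP, against 0.0572 TPM in pistil of 1-2 DBP and 9.18 TPM at 0-2 DAP, and the 6 IDs from Sobic.008G063800 to Sobic.008G064300 summed to 1134 TPM in grain of 10 DAP and 691 TPM at 20 DAP, against 0.719 TPM in pistil of 1-2 DBP and 2.28 TPM at 0-2 DAP. How reads shared by near-identical neighbours were counted is not stated, so the values of single IDs within such a run are uncertain.

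The longest pistil run had 20 neighbours, from Sobic.003G168500 to Sobic.003G169900, and summed to 51.5 TPM in grain of 10 DAP and 35.5 TPM at 20 DAP, against 1665 TPM in pistil of 1-2 DBP and 6649 TPM at 0-2 DAP. It opens a stretch of 72 IDs, up to Sobic.003G173650, whose limits were set after the values were seen. Of the 66 IDs of the stretch that passed the TPM minimum, 5 were higher in filling grain, 54 (81.8%) were higher in pistil and 7 were not called. Over all genes the shares were 5.17% for filling grain and 29.6% for pistil, but the limits of the stretch were set from these values and nothing is read from the difference. Of the 54, 42 were called under all 3 scales, against 1954 of all 7166 pistil genes (27.3%). Set against the 66 passing IDs of the stretch, these 42 compare with 8.08% of all passing genes. The stretch holds 22 of the 156 pistil genes with a gap of at least 4. Its 54 pistil genes held 0.0411% of TPM at 10 DAP and 0.0204% at 20 DAP, against 0.938% at 1-2 DBP and 3.81% at 0-2 DAP. At 0-2 DAP 41 of the 54 were at least 2-fold above 1-2 DBP and 0 at least 2-fold below, where over all 7166 pistil genes 389 were above and 382 below. All these comparisons use a stretch picked from the same values, so nothing is read from them either.

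Within the stretch the 5 grain genes are themselves neighbours, from Sobic.003G172908 to Sobic.003G172916, and all had lower values at 20 DAP than at 10 DAP. The single IDs given were picked after their values were known. Sobic.003G172914 had 501 TPM in grain of 10 DAP and 135 TPM at 20 DAP, against 8.06 TPM in pistil of 1-2 DBP and 7.21 TPM at 0-2 DAP, and Sobic.003G172908 had 150 TPM in grain of 10 DAP and 45.3 TPM at 20 DAP, against 15.0 TPM in pistil of 1-2 DBP and 17.8 TPM at 0-2 DAP. The next ID, Sobic.003G172918, had 146 TPM in grain of 10 DAP and 41.0 TPM at 20 DAP, against 491 TPM in pistil of 1-2 DBP and 2650 TPM at 0-2 DAP. After it Sobic.003G172920 had 51.5 TPM in grain of 10 DAP and 15.7 TPM at 20 DAP, against 2384 TPM in pistil of 1-2 DBP and 13292 TPM at 0-2 DAP. Sobic.003G172918 was not called after median-ratio scaling, where its difference of side means was -2.69, while Sobic.003G172920 and the 5 grain genes were called under all 3 scales.

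**Figure D5:**
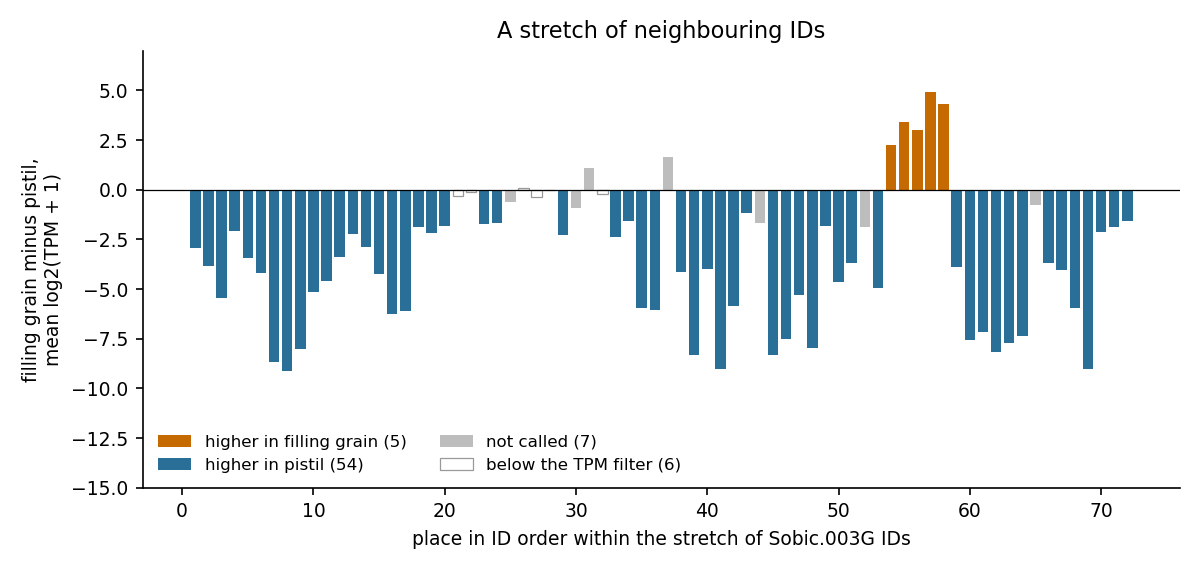
Difference of side means, filling grain minus pistil on the log2(TPM + 1) scale, for the 72 IDs of the Sobic.003G stretch in ID order. Bars of the 54 pistil genes point down along the whole stretch and the 5 grain genes form a single block of bars that point up.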

How the data were processed

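The authors deposited 1 TPM value per gene and stage, per the file headers, and each column summed to 1000000. Per the submitters' processing notes the tools included HISAT2, featureCounts (2.2.0) and DESeq2; what each was used for is not recorded there. Not given in the sources used here: genome build, annotation, and how libraries were combined into a stage value. Libraries were grouped by stage from their titles, and 0 columns had to be left out for want of a label. From the TPM values, log2(TPM + 1) was computed for genes of at least 1 TPM in any of the 4 stages, and the rule on the lower and higher value of each side was applied. The difference of side means is the mean of 10 and 20 DAP minus the mean of 1-2 DBP and 0-2 DAP on that scale. With 1 value per stage there is no p-value, SD or n. The code was tested on simulated data without noise, made from the 10 DAP column with known changes. That tests only the coding of the rule, not its behaviour when columns differ in scale. Named IDs are the 2 with the largest gap per side among members of at least 20 TPM, the IDs next to the threshold and the listed IDs; other IDs are said to have been chosen after their values were seen. Lists by gene description could not be used, since 0 IDs matched the reference gene table (assembly Sorghum_bicolor_NCBIv3), also after rewriting the ID prefix. The members, lists and alternatives were chosen with earlier results of these data known. Alternatives were pseudocounts of 0.1 and 5, no filter and 5 TPM, a gap of 2, median-ratio size factors (0.827 for 10 DAP, 0.535 for 20 DAP, 1.50 for 1-2 DBP and 1.52 for 0-2 DAP), quantile normalization, leaving out the 100 most abundant genes, and leaving out each column. Python 3.11.15, numpy 2.4.6, pandas 2.3.3, scipy 1.17.1 and matplotlib 3.10.9 were used.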

Additional observations from a re-analysis of the deposited data

How the results depend on the processing

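No gene called on one side was called on the other under any alternative run. For most settings this was fixed in advance. Another pseudocount, filter or gap, or a left-out column, cannot reverse a call, and the median-ratio factors were too close together to do so. For quantile normalization it was not fixed. Of 263 recomputed values of 30 named and listed IDs, 108 moved by more than 1.5 times in fold. With a pseudocount of 0.1 the grain genes made up 16.6% of calls. With 5, 734 genes were higher in filling grain and 4291 in pistil, with 3 listed IDs in pistil, where the deposited scale gave 5. Median-ratio scaling gave 2819 grain and 1954 pistil genes (59.1% grain), quantile normalization 2466 grain and 2511 pistil genes (49.5%), and leaving out the 100 most abundant genes 2077 grain and 3905 pistil genes (34.7%). A gap of at least 2 left 652 grain and 1496 pistil genes (30.4%), with 3 listed IDs in pistil. Without 10 DAP, 12089 genes were higher in pistil, 9 of them listed, and the grain share was 13.3%. Without 20 DAP, 2227 genes were higher in filling grain and the share was 22.8%, and without 0-2 DAP it was 16.1%. Leaving out a column can only add calls, since fewer values must agree. For the other moved values the cause was not tested. Of 62 list medians recomputed, 28 moved by more than 1.5 times. No paired analysis was possible because each stage has a single deposited column, and single libraries could not be left out. The depth of the values is unknown, so values listed at 0 cannot be separated from sampling.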
